A study of Mus musculus with 6 samples.

Results

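A group of 10 genes of the endoplasmic reticulum (ER), out of the 55411 annotated genes in the deposited tables, were followed through the 6 hippocampal RNA libraries of the series. They were taken by gene name and were Hspa5, Hsp90b1, Calr, Sdf2l1, Pdia4, Pdia6, Dnajb11, Manf, Creld2 and Xbp1. Clothianidin (CLO) belongs to the neonicotinoids, insecticides that bind the nicotinic receptors for acetylcholine. The study gave it to C57BL/6N males at 50 mg/kg/day, a dose described as having no observed adverse effect, and asked how exposure of the father bears on the hippocampus and on the next generation. Poly(A)-selected RNA of 3 samples labelled vehicle control and 3 labelled CLO was sequenced with a strand-specific kit. The labels' protocols name offspring as the source of the tissue, while the design text names only the dosed males, and the labels give no sex, age, sire or litter. Nothing states that samples of a group came from separate litters, so p-values measure only the spread between samples, which may be technical. Libraries held 19637402 to 26812580 counts, each CLO library fewer than each control library. Over all genes control replicate 1 stood apart from its group, with a chi-square per gene of 69.4 and 74.9 to control replicates 2 and 3. It was 25.6, 38.6 and 65.4 to CLO replicates 1, 2 and 3. CLO replicate 1 was closest to CLO replicate 2 (20.4). Its values to control replicates 1, 2 and 3 (25.6, 35.8 and 31.4) were lower than that to CLO replicate 3 (49.3). Values without control replicate 1 are given with the results it touches. Markers of hippocampal neurons were present in all 6 libraries, with summed levels of 536 to 663 CPM (counts scaled to the library total) for CA1 and 209 to 376 CPM for dentate granule cells.

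The ER is where secreted and membrane proteins are folded. When unfolded proteins build up in it, the sensors IRE1, PERK and ATF6 start the unfolded protein response: IRE1 splices the Xbp1 messenger RNA, PERK slows translation and favours ATF4, and cleaved ATF6 enters the nucleus. XBP1 and ATF6 act on chaperone genes through the ER stress response element (ERSE), while ATF4 acts on a separate set that includes Ddit3, which encodes CHOP. In the hippocampus, as in other tissues, the chaperones are made in all cells and most strongly in cells that secrete much protein. In RNA from whole tissue, fewer cells of a type and less RNA per cell cannot be told apart.

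The promoters of these genes are shown first because XBP1 and ATF6 act on chaperone genes through the ERSE, which not all of their windows held. The ERSE was searched as CCAAT and CCACG with any 9 bases between them, on both strands of RefSeq promoter windows (GRCm38.p6), which run from 250 bases before to 50 bases after each annotated start. It was found in 39 of 32851 windows, or 0.119%, and for 37 of 27025 gene names, or 0.137%. Of the 9 genes described that have a window, 5 had a match, namely Hspa5, Hsp90b1, Calr, Pdia6 and Creld2. The 6 sites are given below in the direction of the motif, with its fixed letters in capitals.
Hspa5: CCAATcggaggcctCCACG
Hsp90b1, distal: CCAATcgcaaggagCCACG
Hsp90b1, proximal: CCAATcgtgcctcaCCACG
Calr: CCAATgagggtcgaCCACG
Pdia6: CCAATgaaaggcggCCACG
Creld2: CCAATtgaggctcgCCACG
The Hspa5 site begins 65 bases before the start, that of Pdia6 98 bases before it, and those of Hsp90b1 212 and 107 bases before it. The sites of Calr (162 bases before the start) and Creld2 (126 bases) and the proximal one of Hsp90b1 lie on the strand opposite to the gene. The related ERSE-II, ATTGG and CCACG with any 1 base between them, was in 0.0365% of windows and in that of Dnajb11, as ATTGGcCCACG, 7 bases past the start. Neither TGACGTGG, the XBP1 element called UPRE (0.676% of windows), nor TGATGCAAT, a C/EBP-ATF element (0.192%), was in any of the 9 windows. The windows of Sdf2l1, Pdia4 and Xbp1 held none of the 4 motifs, and Manf has no window in the table. A match is a string in a window and was not tested for binding. Only exact matches were counted, so a window may hold near matches that are not listed here.

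Full windows are given for Hspa5 and Hsp90b1, both with an ERSE (capitals, written along the gene's strand) but with different values in CLO, and for Sdf2l1, which had the highest fold change and no match. They lie at chr2:34771840-34772139 (plus strand), chr10:86705395-86705694 (minus strand) and chr16:17132334-17132633 (minus strand) of GRCm38.p6.
Hspa5: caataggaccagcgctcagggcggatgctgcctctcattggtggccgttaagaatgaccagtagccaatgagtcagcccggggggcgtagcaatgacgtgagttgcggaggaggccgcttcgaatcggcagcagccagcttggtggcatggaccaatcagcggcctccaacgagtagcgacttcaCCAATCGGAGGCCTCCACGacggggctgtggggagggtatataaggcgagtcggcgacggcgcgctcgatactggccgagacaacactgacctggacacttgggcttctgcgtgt
Hsp90b1: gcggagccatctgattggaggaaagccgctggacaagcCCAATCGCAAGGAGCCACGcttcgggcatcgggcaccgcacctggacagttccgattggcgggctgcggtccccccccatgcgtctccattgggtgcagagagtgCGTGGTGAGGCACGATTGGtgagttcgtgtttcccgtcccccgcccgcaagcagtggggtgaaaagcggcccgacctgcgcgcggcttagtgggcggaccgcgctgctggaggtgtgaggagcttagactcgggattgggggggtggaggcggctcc
Sdf2l1: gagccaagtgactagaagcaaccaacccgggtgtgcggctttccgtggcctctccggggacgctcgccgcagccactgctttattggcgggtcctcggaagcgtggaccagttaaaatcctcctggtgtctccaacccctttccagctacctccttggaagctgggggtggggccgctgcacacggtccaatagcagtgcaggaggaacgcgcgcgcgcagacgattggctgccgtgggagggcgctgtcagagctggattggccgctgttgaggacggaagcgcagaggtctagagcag

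By level, calreticulin (Calr) was the most abundant of the 10 genes. Levels of different genes are compared by the authors' TPM, a transcript share that accounts for gene length. Calr stood at 519 ± 44.0 TPM (SD, n = 6 libraries) and ranked 211 among 16129 genes tested. Hspa5 followed at 268 ± 48.3 TPM and Hsp90b1 at 132 ± 30.8 TPM. The 6 libraries of these 3 genes did not overlap: the lowest Calr value was 443 TPM and the highest Hspa5 value 342 TPM, and the lowest Hspa5 value was 205 TPM against a highest Hsp90b1 value of 180 TPM. Below them came Pdia6 at 102 ± 21.5 TPM, Xbp1 at 86.6 ± 7.91 TPM, Pdia4 at 73.0 ± 8.56 TPM, Sdf2l1 at 58.2 ± 23.1 TPM, Dnajb11 at 46.3 ± 7.11 TPM and Creld2 at 40.6 ± 10.7 TPM. Each neighbouring pair from Hsp90b1 down to Creld2 overlapped between libraries, so their order is not firm. Within each library, however, Xbp1 was above Pdia4, while the other neighbouring pairs from Hsp90b1 down changed order between libraries. All 9 genes were well covered, with 401 to 16823 counts per library.

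**Figure D1:**
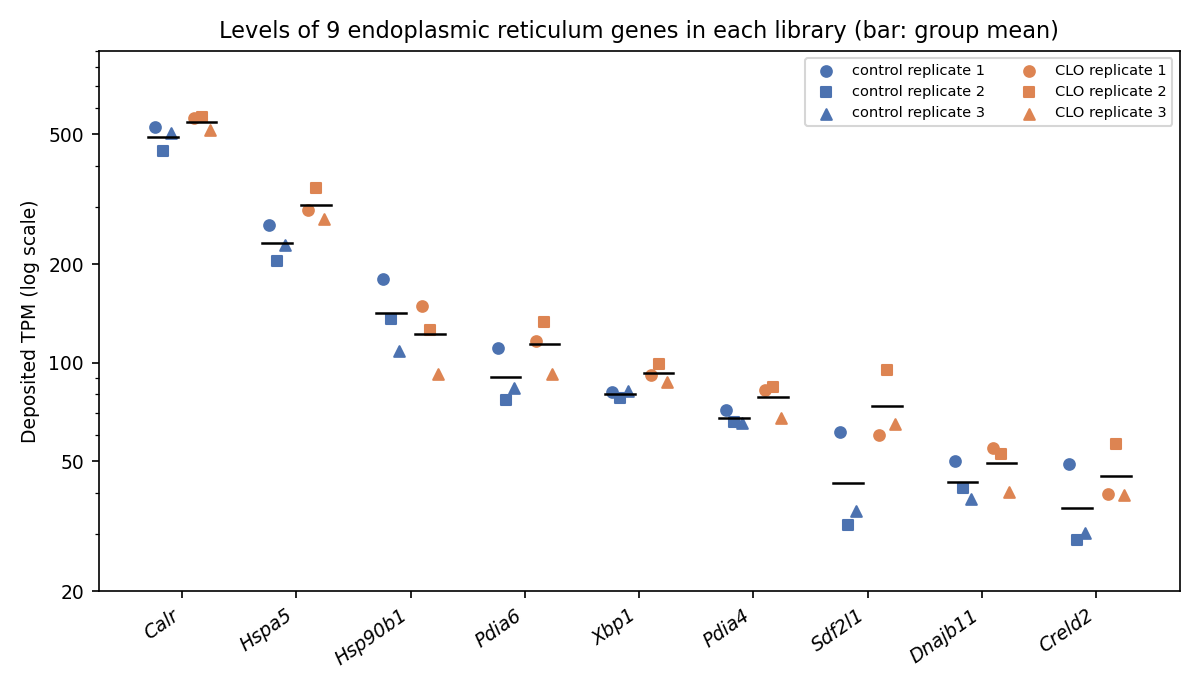
Deposited TPM (log scale) of 9 of the 10 genes in each library, ordered by mean, with control in blue, CLO in orange, marker shape for the replicate and a bar at each group mean. Calr lies highest at 443 to 565 TPM, the CLO libraries of Hspa5 and Xbp1 lie above all their control libraries, and Manf (0.02 to 0.15 TPM) is left out because its row is not a usable measure.

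Manf, which encodes a secreted neurotrophic factor that is also an ER stress gene, could not be measured. Its row held 29 counts over all 6 libraries, 1 to 7 in each, and it did not pass the filter on low counts. The deposited row spans chromosome 9 from 106715511 to 106769178 (GRCm39, minus strand) and covers the whole of Rbm15b, from 106758117 to 106764627 on the same strand, which held 1032 to 1340 counts per library. A low count in an overlapping row need not mean low expression, so Manf is left out of every count of genes below. Hsp90b1 and Pdia4 also share their strand with short rows inside them, Hsp90b1 with Gm15344 and an unnamed row, which held at most 1 count in a library, and Pdia4 with Mir704, which held 0.

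By edgeR, 0 of the 9 tested genes passed between CLO and control, and 8 of them had the higher mean in CLO. The quasi-likelihood test of edgeR was run on 16129 genes, with p-values adjusted by Benjamini-Hochberg and a threshold of 0.05. It called 0 of all genes (0%), while 2167 had an unadjusted p under 0.05. The 8 were Sdf2l1, Hspa5, Creld2, Pdia6, Pdia4, Xbp1, Dnajb11 and Calr, and Hsp90b1 was the exception. The median log2 fold change of the 9 was 0.34, against -0.01 for all genes tested, of which 48.2% were above 0. At an unadjusted p under 0.05, 5 of the 9 were higher and 0 lower, where 6.18% of all genes were higher and 7.26% lower (13.4% in either direction). Without CLO replicate 2 that count was 1 of 9, Sdf2l1, against 2.86% of all genes. Without control replicate 2 it was 2 of 9 (3.12% of all genes), without control replicate 3 it was 3 of 9 (5.85%), and without control replicates 1 and 2 it was also 3 of 9 (5.22%). Without control replicate 1 it was 6 of 9 (12.4%), and the median log2 fold change of the 9 was 0.39. The count was 7 of 9 without CLO replicate 1 (9.46%) and 5 of 9 without CLO replicate 3 (3.03%). At the adjusted threshold, limma-voom passed 0 of all genes and limma on log2(TPM + 0.5) also 0. DESeq2 passed 1 of the 9, Sdf2l1, where 1.32% of all genes passed, and edgeR with no filter on low counts passed the same gene, where 2.56% did. With sample quality weights in limma-voom 8 of the 9 passed, where 22.1% of all genes did. The genes were proposed with results of these libraries known, so these counts describe the libraries and are not a test of the group.

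**Figure D2:**
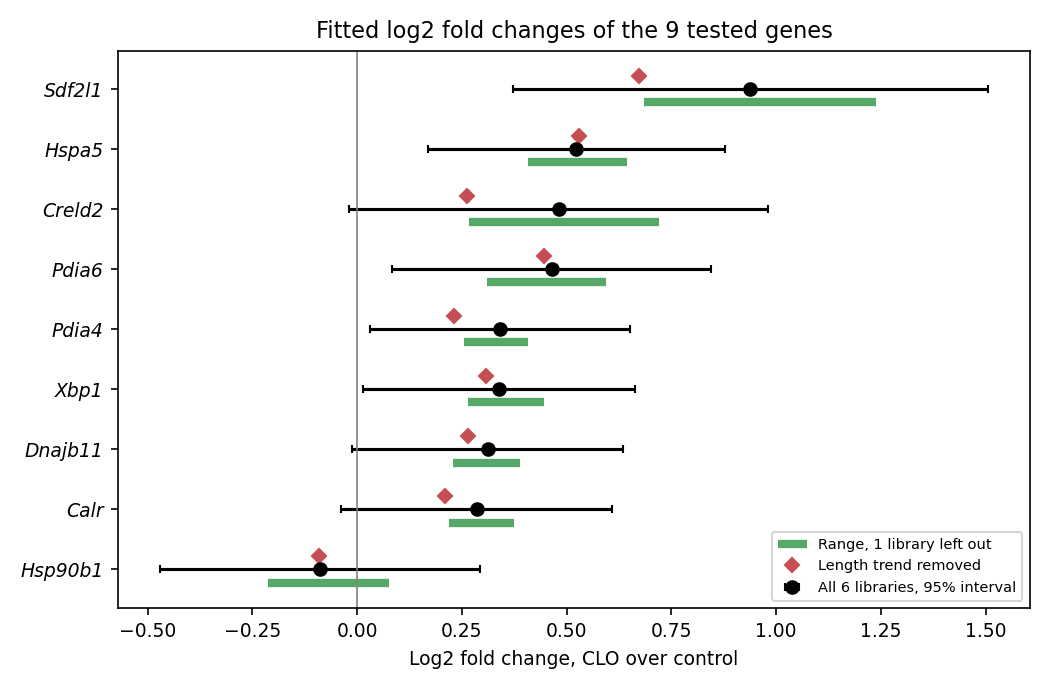
Log2 fold change of CLO over control for the 9 tested genes (x axis), with the 95% interval from all 6 libraries in black, the range when 1 library is left out in green and the value with the gene length trend removed as a red diamond. Sdf2l1 is highest at 0.94 and Hsp90b1 lowest at -0.09, and the intervals of Creld2, Dnajb11, Calr and Hsp90b1 include 0.

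Hspa5 encodes BiP, the Hsp70 chaperone of the ER and the protein that keeps the 3 sensors inactive at rest. It (ENSMUSG00000026864) lies on chromosome 2 from 34661982 to 34667559 (GRCm39, as are all gene positions here). Differences between libraries are given in CPM of the TMM-scaled library total. Hspa5 was at 449, 366 and 431 CPM in control replicates 1, 2 and 3 and at 497, 691 and 602 CPM in CLO replicates 1, 2 and 3. Every CLO library was above every control library, with CLO replicate 1 nearest to the controls. Means were 415 ± 43.9 CPM for control and 597 ± 97.2 CPM for CLO (SD, n = 3 each), or 1.44-fold. On the log2 scale this was 0.52 ± 0.16 (SE; adjusted p = 0.269 by edgeR and 0.111 by DESeq2). Hspa5 ranked 442 of 16129 genes by p.

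Sdf2l1 and Dnajb11 encode partners of BiP. SDF2L1 is a small ER protein that works with DnaJ partners, and DNAJB11 (ERdj3) is a DnaJ cochaperone that delivers unfolded clients to BiP. Sdf2l1, on chromosome 16 from 16948002 to 16950247, was at 27.5, 15.0 and 17.3 CPM in control and 26.7, 50.6 and 37.2 CPM in CLO. Control replicate 1 and CLO replicate 1 were almost alike, so the groups overlapped, and the highest library was 1.83 times the lowest in control and 1.89 times in CLO. The group means were 19.9 ± 6.63 and 38.2 ± 11.95 CPM (SD, n = 3), 1.92-fold. Its log2 fold change of 0.94 ± 0.26 (SE) had an adjusted p of 0.232 by edgeR. By DESeq2 its adjusted p was 0.034. The log2 fold change was 0.69 without CLO replicate 2 and 1.24 without control replicate 1. Dnajb11, on chromosome 16 from 22676595 to 22698384, was at 65.6, 56.7 and 54.98 CPM in control and 70.8, 81.7 and 67.5 CPM in CLO, without overlap but with only 1.24-fold between the means. Its log2 fold change was 0.31 ± 0.15 (SE; adjusted p = 0.384 by edgeR).

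Hsp90b1 encodes GRP94, the Hsp90 chaperone of the ER, and Calr encodes a lectin chaperone that binds calcium and new glycoproteins. Hsp90b1 lies on chromosome 10 from 86526073 to 86541373 and Calr on chromosome 8 from 85568479 to 85573563. Hsp90b1 was at 293, 231 and 195 CPM in control and 241, 244 and 192 CPM in CLO. The groups overlapped, and control replicate 1 was the highest of the 6 libraries. The means were 240 ± 49.3 and 226 ± 28.9 CPM, and the log2 fold change was -0.09 with a 95% interval from -0.47 to 0.29 (adjusted p = 0.835 by edgeR). Its sign depended on single libraries, since without control replicate 1 it was 0.075. Calr was at 611, 539 and 646 CPM in control and 643, 778 and 767 CPM in CLO. Control replicate 3 was just above CLO replicate 1. The log2 fold change of Calr was 0.28 ± 0.15 (SE; adjusted p = 0.415 by edgeR). Whether Hsp90b1 differed from the other genes in its response was not tested.

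Pdia4 and Pdia6 encode protein disulfide isomerases, which make and rearrange disulfide bonds in folding proteins. Pdia4 lies on chromosome 6 from 47773075 to 47790364 and Pdia6 on chromosome 12 from 17316546 to 17334771. Pdia4 had the tightest controls of the 9 genes, at 69.7, 66.6 and 69.6 CPM, against 79.2, 97.1 and 84.3 CPM in CLO. Pdia6 was at 168, 122 and 139 CPM in control and 175, 238 and 179 CPM in CLO. For both, each CLO library was above each control library, but for Pdia6 the gap between control replicate 1 and CLO replicate 1 was small. The differences were 1.27-fold for Pdia4 (log2 0.34 ± 0.14 SE, adjusted p = 0.349 by edgeR) and 1.38-fold for Pdia6 (log2 0.46 ± 0.17 SE, adjusted p = 0.326 by edgeR). Without CLO replicate 2 the log2 fold change of Pdia6 was 0.31.

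Creld2 encodes a secreted ER stress protein, and Xbp1 the transcription factor whose messenger RNA is spliced by IRE1. Creld2 lies on chromosome 15 from 88703849 to 88710886 and Xbp1 on chromosome 11 from 5470659 to 5475893. Creld2 was at 27.1, 16.5 and 18.3 CPM in control and 21.7, 36.8 and 27.9 CPM in CLO. Control replicate 1 stood above CLO replicate 1, and the groups overlapped. Its log2 fold change of 0.48 ± 0.23 (SE; adjusted p = 0.385 by edgeR) ran from 0.27 without CLO replicate 2 to 0.72 without control replicate 1. Xbp1 was at 118, 119 and 132 CPM in control and 132, 172 and 162 CPM in CLO. CLO replicate 1 (132.4) was only just above control replicate 3 (131.5). The log2 fold change of Xbp1 was 0.34 ± 0.15 (SE; adjusted p = 0.361 by edgeR). Gene counts do not tell spliced from unspliced Xbp1, so its activation was not analysed here.

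Apart from Hsp90b1, the 9 genes had broadly similar profiles across the 6 libraries, but not the same order of libraries within the groups. Xbp1 was lowest in control replicate 1, and both Xbp1 and Calr were highest of the controls in control replicate 3. For Dnajb11 control replicate 3 was the lowest control and CLO replicate 3 the lowest CLO library. CLO replicate 2 was the highest of the 6 libraries for 8 of the 9 genes and the highest CLO library for all 9. Control replicate 2 was the lowest of the 6 for 6 genes, and control replicate 1 was the highest control for 7, Hsp90b1 among them. How many of all tested genes had the same order of libraries was not computed. The mean deviation of the 9 genes from their own means over libraries on the log2 scale was -0.00 for control replicate 1, -0.35 for control replicate 2 and -0.24 for control replicate 3. For the CLO replicates 1, 2 and 3 it was 0.01, 0.43 and 0.16. Control replicate 1 and CLO replicate 1 were thus level in this mean, but not gene by gene. Hsp90b1 (0.35 and 0.06), Creld2 and Sdf2l1 were higher in control replicate 1. The other genes were higher in CLO replicate 1, among them Hspa5 (-0.14 and 0.01). Over the 6 libraries, each gene's Pearson correlation with that shared profile, of which it is a part, was 0.83 or more except for Hsp90b1, where it was 0.15.

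**Figure D3:**
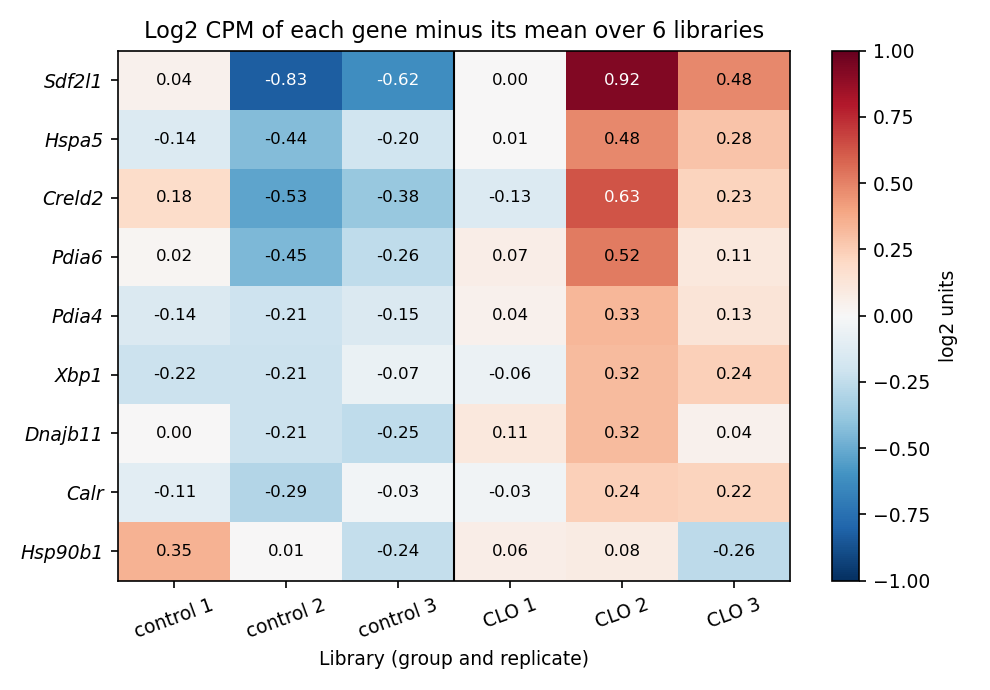
Log2 CPM of each of the 9 tested genes minus its mean over the 6 libraries, by library (columns; line between control and CLO) and gene (rows, ordered by fold change), in log2 units. The CLO replicate 2 column is positive throughout and reaches 0.92 for Sdf2l1, while control replicate 1 and CLO replicate 1 stay near 0 for most genes and Hsp90b1 is at 0.35 in control replicate 1.

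Whether groups overlapped also depended on the scale. In CPM scaled by TMM, 5 of the 9 genes had all CLO libraries above all controls, where 7.84% of all genes did, and 0 had all CLO libraries below, where 6.7% of all genes did. On the authors' TPM this held for 2, Hspa5 and Xbp1, where it held for 5.05% of all genes. On log2(TPM + 0.5), tested with limma, the median log2 fold change of the 9 was 0.21, with no median of all genes computed on that scale. With each library's trend on gene length removed from the counts, the median was 0.26, with Sdf2l1, a short gene of 1108 bp, going from 0.94 to 0.67, Creld2 (1366 bp) from 0.48 to 0.26 and Hspa5 (4229 bp) from 0.52 to 0.53.

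The sensors and their transducers were split between both directions. Of 15 such genes, all tested, 8 were higher and 7 lower (median log2 fold change 0.01), and 0 had an unadjusted p under 0.05 in either direction. Atf6b, a relative of Atf6, had means of 66.9 ± 6.86 CPM for control and 80.6 ± 6.37 CPM for CLO (SD, n = 3 each, in this order below), and Tmbim6, a BAX inhibitor of the ER membrane, at 447 ± 44.8 and 508 ± 17.3 CPM. Eif2ak3, the gene of PERK, had lower means in CLO, at 14.2 ± 0.746 and 11.8 ± 2.21 CPM, as did Creb3l2, an ER-bound transcription factor, at 10.05 ± 0.549 and 7.98 ± 2.36 CPM. Eif2ak3 overlaps another row on its strand, which makes its level uncertain. The other sensor genes, named for their role after their values were seen, were Ern1, which encodes IRE1, at 4.72 ± 0.842 and 3.83 ± 1.03 CPM, and Atf6 at 39.3 ± 5.23 and 34.8 ± 3.74 CPM. No p of these 6 genes passed the adjusted threshold in edgeR.

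Of 26 listed targets of the PERK, ATF4 and CHOP branch, 24 were found and 23 tested, with 14 higher, 9 lower and a median log2 fold change of 0.06. None passed the adjusted threshold by edgeR. At an unadjusted p under 0.05, 2 were higher and 2 lower, and 0 in either direction with the length trend removed. Cebpb, a bZIP transcription factor, was at 17.5 ± 5.26 and 24.9 ± 1.85 CPM, with control replicate 1 at 23.1 and thus inside the CLO range. The other higher gene, Atf3, named because it completes that count, is a stress-induced transcription factor and was under 1 CPM in every library. Slc7a11, the cystine transporter, was at 22.6 ± 8.64 and 15.0 ± 2.69 CPM, and Vldlr, a lipoprotein and reelin receptor, at 38.9 ± 7.43 and 29.1 ± 5.66 CPM. With the length trend removed, the log2 fold change of Slc7a11 went from -0.59 to -0.26 and that of Vldlr from -0.42 to -0.20. Slc7a11 overlaps other rows on its strand, which makes its level uncertain. Ddit4, an inhibitor of mTORC1 signalling, was at 43.1 ± 5.96 and 51.7 ± 7.56 CPM. Atf4 (from the list of sensors and transducers) and Ddit3, given for their role after their values were seen, were at 50.2 ± 23.8 and 49.4 ± 6.37 CPM and at 19.5 ± 10.3 and 22.2 ± 3.31 CPM, with control replicate 1 the highest of all libraries for both (77.0 and 31.2 CPM).

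In the remaining ER lists 0 genes passed by edgeR. Their counts stand beside 48.2% of all genes above 0, and 6.18% higher and 7.26% lower at an unadjusted p under 0.05. Other chaperones and cochaperones had 19 of 31 tested genes higher (median log2 fold change 0.08), with 2 at an unadjusted p under 0.05, the prolyl isomerase gene Ppib (93.6 ± 7.57 and 119 ± 14.9 CPM) and Cnpy2 (47.5 ± 6.82 and 61.4 ± 7.87 CPM). Serpinh1, the collagen chaperone, was at 27.5 ± 4.59 and 35.3 ± 6.24 CPM, and Rcn1, a calcium-binding protein of the ER, at 17.01 ± 4.16 and 13.7 ± 1.76 CPM. The calnexin gene Canx and Hyou1, an Hsp70-like chaperone, are the closest partners of Calr and Hspa5 and were named for that after their values were seen. Canx was at 277 ± 33.2 and 248 ± 42.6 CPM and Hyou1 at 132 ± 7.59 and 140 ± 19.5 CPM, with log2 fold changes of -0.16 and 0.10.

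Other disulfide isomerases and redox partners had 15 of 21 tested genes higher (median 0.15). At an unadjusted p under 0.05, 2 were higher, the selenoprotein genes Selenof (151 ± 13.6 and 204 ± 32.4 CPM) and Selenom (112 ± 39.0 and 160 ± 20.9 CPM), and 1 was lower, Pdia5, which was scarce at 1.44 ± 0.476 and 0.779 ± 0.0487 CPM and overlaps a row on its strand. Pdia3, an isomerase that works with calreticulin and calnexin, was at 227 ± 12.9 and 275 ± 28.3 CPM. Genes of ER-associated degradation, which sends misfolded proteins to the proteasome, were higher for 21 of 30 tested (median 0.10), with 1 at an unadjusted p under 0.05, the ubiquitin-conjugating enzyme gene Ube2g2 (41.1 ± 6.27 and 55.9 ± 2.92 CPM), which overlaps other rows on its strand. Herpud1, an ER stress gene of this pathway, was at 48.2 ± 3.90 and 59.9 ± 7.36 CPM. Derl1, of the retrotranslocation machinery, was at 65.3 ± 5.78 and 78.3 ± 4.23 CPM, and Edem3, which trims mannose from misfolded glycoproteins, at 26.4 ± 3.85 and 19.3 ± 6.41 CPM.

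Among 37 genes of translocation into the ER, signal peptidase and N-glycosylation, 24 were higher (median 0.16), and 5 of these had an unadjusted p under 0.05. Among the 5 were Sec61g and Sec61b, of the translocation channel, at 30.3 ± 2.35 and 45.4 ± 9.66 CPM and at 21.2 ± 5.31 and 29.6 ± 5.67 CPM. Ssr4 and Ssr2, of the translocon-associated complex, were at 35.6 ± 1.96 and 49.6 ± 8.17 CPM and at 65.4 ± 7.42 and 83.9 ± 10.6 CPM. Traffic between ER and Golgi, with retrieval of escaped chaperones by KDEL receptors, had 14 of 25 tested genes higher (median 0.05) and 1 at an unadjusted p under 0.05, the coat protein gene Sec13 (38.1 ± 4.85 and 50.3 ± 8.28 CPM). Sar1b, Cope and Tmed9, also of coats and cargo carriers, had log2 fold changes of 0.33, 0.33 and 0.28. On the log2(TPM + 0.5) scale the median was below 0 for the sensors (-0.06), the ATF4 branch (-0.07), other chaperones (-0.04), degradation (-0.03) and ER to Golgi traffic (-0.07). The sign of these 5 medians thus depended on the scale. No TMM factors were applied to the TPM, so 0 need not mark the same reference on both scales. Medians were also lower on the log2(TPM + 0.5) scale for the other isomerases (0.02), translocation (0.05) and the 9 genes described (0.21). Each of the 9 genes was lower on that scale, among them Hspa5 (0.52 to 0.39), Sdf2l1 (0.94 to 0.80) and Hsp90b1 (-0.09 to -0.20). No median of all genes was computed on that scale, and whether all genes shifted alike was not tested. With the length trend removed, 20 of the 25 genes of ER to Golgi traffic were above 0 and their median was 0.12.

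**Figure D4:**
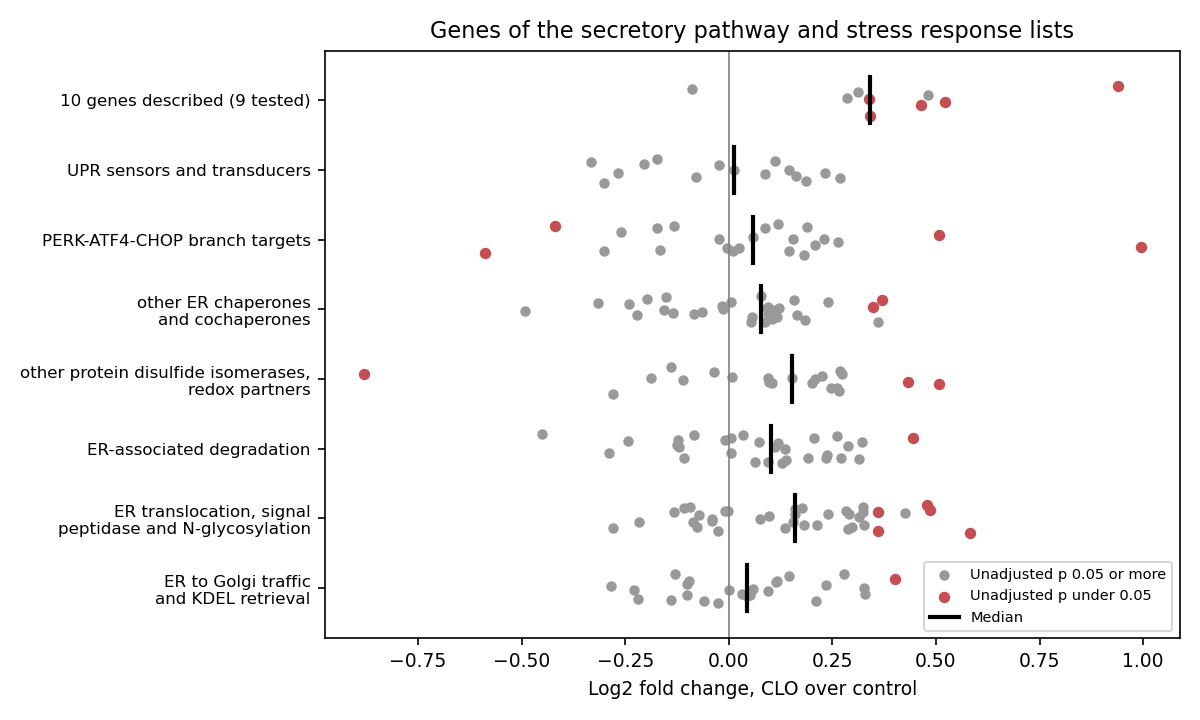
Log2 fold change of CLO over control (x axis) for each tested gene of the 10 described and of 7 further lists (rows), with genes at an unadjusted p under 0.05 in red and a bar at each median. The median of the genes described is 0.34 and those of the other lists lie between 0.01 and 0.16.

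Genes with an ERSE other than the 5 above lay on both sides of 0. Of the 37 gene names with a match in all windows, 20 were tested, the 5 described above and 15 others. Of the 15 others, 7 were higher and 8 lower (median log2 fold change -0.02), and 0 had an unadjusted p under 0.05 or passed the adjusted threshold in edgeR. Among them are 7 genes of ER proteins or close relatives of such, named for their function after their values were seen. Of these Calr4 (0.41 ± 0.43 SE), Derl3 (0.21 ± 0.47), Ero1b (0.15 ± 0.15), Dnajc3 (0.12 ± 0.14) and Alg12 (0.10 ± 0.20) were above 0. Syvn1 (-0.12 ± 0.17) and Canx (-0.16 ± 0.16) were below it. Derl3 was scarce, with means of 0.759 CPM in control and 0.873 CPM in CLO. The 4 members with an ERSE and a higher mean, Hspa5, Creld2, Pdia6 and Calr, ran from 0.28 to 0.52, while Hsp90b1, with 2 exact matches, was at -0.09. Sdf2l1, Pdia4 and Xbp1, with no exact match, were at 0.94, 0.34 and 0.34.

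**Figure D5:**
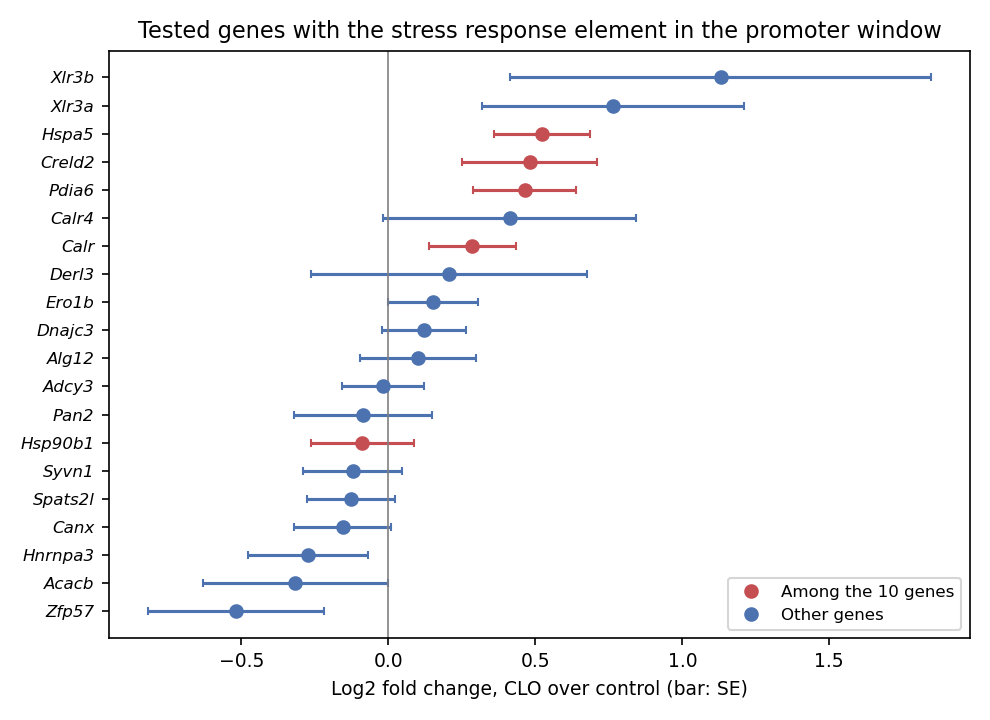
Log2 fold change of CLO over control with its SE (x axis) for the 20 tested genes whose promoter window holds an ERSE, with the 5 genes described in red and the 15 others in blue. The others lie on both sides of 0, from -0.52 (Zfp57) to 1.13 (Xlr3b).

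The genes whose profile over the 6 libraries was most like the mean profile of the 9 were picked from 8753 other named genes at 10 CPM or more. The 10 with the highest Pearson correlation (0.98 to 0.99, as a description) were Trp53rka, Rbck1, Rnh1, Tmem205, Tmem121, Cdk2ap2, Sgce, B9d2, Rcn3 and Nr2f6. Of these Rcn3, a calcium-binding protein of the ER, was at 12.04, 10.2 and 10.9 CPM in control and 11.9, 13.5 and 12.9 CPM in CLO. Rbck1, a subunit of the linear ubiquitin ligase, was at 80.5, 72.6 and 75.5 CPM and at 82.8, 95.3 and 88.0 CPM. Cdk2ap2 had the highest fold change of the 10, from 15.6 ± 3.97 to 23.1 ± 4.17 CPM. None of the 10 is on the ER lists used here.

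Markers of cell types and regions also differed between the libraries, and their part in the results above was not tested. The summed level of 12 markers of CA2 and CA3 neurons was 347 to 408 CPM in control and 455 to 548 CPM in CLO, without overlap. The sum of 8 microglial markers was 435 to 465 CPM in control and 483 to 524 CPM in CLO, also without overlap. The sum of 13 neocortex markers was 354 to 594 CPM in control and 270 to 396 CPM in CLO. At an unadjusted p under 0.05 by edgeR, 7 of 11 tested CA2 and CA3 markers and 1 of 8 microglial markers were higher. For neocortex 6 of 13 were lower, and 0 markers of these 3 lists went the other way at that p. Of all genes 6.18% were higher and 7.26% lower. All 13 neocortex markers were below 0, with a median log2 fold change of -0.50, but 0.05 with control replicates 1 and 2 left out. Spermatid transcripts, foreign to brain, reached 13.1 and 4.90 CPM in control replicates 1 and 2 and at most 0.192 CPM elsewhere. Markers of 2 cell types rich in ER were low. Of 8 markers of B and plasma cells Mzb1 was at 0 and Igkc under 10 counts in all, with sums of 5.72 to 10.2 CPM that rest mostly on Ighm. The choroid plexus list of 10 summed to 13.2 to 19.0 CPM in control and 15.3 to 18.8 CPM in CLO, with Otx2 and Kcne2 under 10 counts in all. With control replicates 1 and 2 left out, a fit in which the lone control is assumed to vary like the CLO libraries, the median log2 fold change of the 9 genes was 0.42 and 0 of them passed.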

How the data were processed

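RNA was measured in 3 control and 3 CLO hippocampal libraries. Read counts per gene were deposited by the authors as whole numbers without normalization, and the deposited TPM values were recomputed from them and the table's gene lengths to within 5e-04. Cutadapt 2.9, featureCounts 2.6.0, HISAT2 2.2.0 and GRCm39 appear in the submitters' processing notes, with no order or role. For the annotation release and for strand and overlap settings in counting, nothing is given in the sources used here, so reads shared by overlapping rows or near-identical copies are uncertain. Rows without annotation (1103, 0.640% to 0.780% of counts) were left out. From the counts, CPM and tests were computed with edgeR 4.0.16 in R 4.3.3: filterByExpr, TMM factors and a robust two-sided quasi-likelihood test without a block, with Benjamini-Hochberg adjustment over 16129 genes. SE is the log2 fold change divided by the root of the F statistic. Alternatives used DESeq2 1.42.0, limma 3.58.1, other scalings and filters, removal of each library's length trend, and fewer libraries. The scripts were tested on simulated data. The 10 genes, all lists and the alternatives were chosen with earlier results of these data known. From each list up to 4 genes with the smallest p at 1 CPM or more are named, and any other gene is said to be named after its values were seen. Genes with a like profile are the 10 with the highest correlation at 10 CPM or more. Motifs were searched in RefSeq windows of GRCm38.p6, matched by symbol, while other coordinates are those of the deposited table in GRCm39.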

Additional observations from a re-analysis of the deposited data

How the results depend on the processing

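The count of genes past the threshold, 0 by edgeR with all libraries, was 204 by DESeq2 (140 higher, 64 lower), 3561 by limma-voom with sample quality weights and 699 with no filter on low counts, and it ran from 0 to 20 with 1 library left out. Of the 9 ER genes, 0 passed by edgeR, 1 (Sdf2l1) by DESeq2, 1 (Sdf2l1) with no filter and 8, all but Hsp90b1, with quality weights, a setting that called 22.1% of all genes, against 2.56% with no filter. With 1 library left out, 0 passed in each of the 6 fits. Their median log2 fold change, 0.34, ran from 0.21 to 0.46 over 18 other settings and from 0.26 to 0.45 with 1 library left out. All 9 genes but Hsp90b1 kept a value above 0 in all 18 settings. List medians close to 0 moved with single libraries: that of the sensors was 0.01 and -0.03 without control replicate 3, that of the ATF4 branch 0.06, 0.13 without control replicate 1 and -0.01 without control replicate 3, that of other chaperones 0.08 and 0.01 without CLO replicate 3, that of degradation 0.10 and 0.05 without control replicate 2, and that of ER to Golgi traffic 0.05 and 0.01 without control replicate 1. With control replicates 1 and 2 left out the last was -0.03. The median of the other isomerases went from 0.15 to 0.26 without CLO replicate 1, and that of translocation from 0.16 to 0.25 without control replicate 1. Hsp90b1 ran from -0.21 to 0.075 with 1 library left out and reversed to 0.073 with quality weights, 0.075 without control replicate 1, 0.018 without CLO replicate 3 and 0.21 with control replicates 1 and 2 left out, and the cause was not tested. No label says that the replicate numbers pair the libraries. Correlations of same-numbered deviations from the group means were -0.16, -0.09 and 0.28, and those of different numbers ran from -0.38 to 0.43. Over so few libraries these values cannot decide whether a number marks a shared sire, litter or day. With the replicate number as a block 0 genes passed, 0 of them members, the members' median was 0.34 (0.26 with the length trend also removed), and 2 members had an unadjusted p under 0.05 in place of 5. The counts of 401 or more per library leave little counting error for the 9 genes, so the spread between 3 libraries a group sets the precision, and for Manf nothing can be said.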

Other observations

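Ratios between ER chaperones within a library, from the authors' TPM and chosen after their values were seen, also differed. Hsp90b1 stood at 0.684, 0.664 and 0.476 of the Hspa5 level in control replicates 1, 2 and 3 and at 0.508, 0.370 and 0.335 in CLO replicates 1, 2 and 3, with control replicate 3 inside the CLO range. Calr stood at 2.00, 2.16 and 2.203 times the Hspa5 level in control and at 1.90, 1.65 and 1.87 times in CLO, without overlap. Hspa5, the divisor here, was itself higher in each CLO library than in each control library in TPM. The share of all gene pairs whose ratio does not overlap was not computed. Sdf2l1 stood at 1.22, 0.773 and 0.918 times the level of Dnajb11 in control and at 1.10, 1.81 and 1.61 times in CLO, with CLO replicate 1 inside the control range. The 10 genes, including at most 0.151 TPM from the row of Manf, summed to 1394, 1106 and 1177 TPM in control and 1448, 1554 and 1276 in CLO. These ratios were not tested.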
